A study of Mus musculus with 12 samples.

Results

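The regions described here are the accessible chromatin peaks around 10 genes of the erythroid transcription factor network, Gata1, Klf1, Tal1, Nfe2, Zfpm1, Gfi1b, Bcl11a, Ldb1, Lmo2 and Sox6, in mouse bone marrow. A peak was taken when its centre lay inside one of these genes or within 20 kb of its ends on RefSeq positions of GRCm38, and it was given to the nearest of the 10. This placed 166 of the 75281 peaks. Sox6 had 36, Zfpm1 and Bcl11a 29 each, Tal1 15, Lmo2 14, Gfi1b 13, Klf1 11, Ldb1 9, Nfe2 6 and Gata1 4. Of the 166, 101 had their centre inside the gene. For 128 the regulator was also the nearest protein-coding gene, and 38 lay nearer to another gene.

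Chromatin accessibility had been measured by ATAC-seq, in which the Tn5 transposase inserts sequencing adapters into DNA not wrapped in nucleosomes, so that the read count of a region reports how open it is. The 12 libraries came from the inbred, obesity-prone strain NZO/HILtJ, with no treatment named in the labels: 3 females and 3 males aged 3 months, and 3 females and 3 males aged 18 months. The tissue label is bone marrow, whereas the protocol text describes a sort of CD3e+ CD8+ T cells. A peak was found for 9 of 10 erythroid, 11 of 12 neutrophil, 10 of 10 B cell and 7 of 10 T cell marker genes. Those without one among the T cell markers were Cd3e, Cd8a and Cd8b1, while Cd3d had 28.3 CPM and Lck 49.8 CPM on average. The libraries are called bone marrow here after their tissue label.

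GATA1 is the zinc finger factor without which red cell precursors do not mature, and KLF1 binds CACC-type sites at globin and other erythroid genes. TAL1, a basic helix-loop-helix factor, joins GATA1 through the bridging proteins LMO2 and LDB1, and LDB1 also brings distant enhancers to promoters. ZFPM1 (FOG-1) is the cofactor of GATA1, GFI1B is a repressor of erythroid and megakaryocytic genes, NFE2 is the large subunit of the NF-E2 dimer that binds the globin control region, and BCL11A and SOX6 silence embryonic globin genes. Several of the 10 also act outside the red cell lineage: GATA1, TAL1, NFE2, ZFPM1 and GFI1B in megakaryocytes, LMO2 and LDB1 in stem cells and BCL11A in B cells.

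RefSeq promoter sequences on GRCm38.p6 were found for 8 of the 10 genes, and none was found for Nfe2 and Lmo2. The reference is that of another strain, not NZO/HILtJ. The 7 windows printed here were chosen because each overlaps a peak whose values the results turn on. Each runs 5′ to 3′ over the 250 bases before a listed transcription start, on the gene's own strand, and capitals mark a GATA motif (AGATAA or TGATAA) or a CACC-type motif (CCNCNCCC), on either strand, with overlapping matches allowed. The windows are Gata1 at chrX:7967911-7968160 (minus strand), Klf1 at chr8:84901732-84901981 (plus), Tal1 at chr4:115056176-115056425 (plus), Zfpm1 at chr8:122281891-122282140 (plus), Gfi1b at chr2:28621983-28622232 (minus), an internal start of Sox6 at chr7:115846141-115846390 (minus) and Ldb1 at chr19:46045312-46045561 (minus).
Gata1: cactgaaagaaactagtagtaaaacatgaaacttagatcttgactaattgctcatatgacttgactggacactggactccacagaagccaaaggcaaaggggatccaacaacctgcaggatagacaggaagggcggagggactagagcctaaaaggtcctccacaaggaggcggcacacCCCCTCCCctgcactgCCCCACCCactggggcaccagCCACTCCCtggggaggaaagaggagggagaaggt
Klf1: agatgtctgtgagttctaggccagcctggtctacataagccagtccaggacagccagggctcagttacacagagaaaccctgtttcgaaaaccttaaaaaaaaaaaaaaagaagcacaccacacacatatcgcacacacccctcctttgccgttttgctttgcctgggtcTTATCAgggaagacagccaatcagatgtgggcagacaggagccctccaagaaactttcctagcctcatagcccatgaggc
Tal1: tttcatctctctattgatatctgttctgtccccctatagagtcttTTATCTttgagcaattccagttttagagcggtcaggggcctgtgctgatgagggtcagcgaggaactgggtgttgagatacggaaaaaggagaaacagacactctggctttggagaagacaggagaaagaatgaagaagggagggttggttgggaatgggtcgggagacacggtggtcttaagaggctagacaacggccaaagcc
Zfpm1: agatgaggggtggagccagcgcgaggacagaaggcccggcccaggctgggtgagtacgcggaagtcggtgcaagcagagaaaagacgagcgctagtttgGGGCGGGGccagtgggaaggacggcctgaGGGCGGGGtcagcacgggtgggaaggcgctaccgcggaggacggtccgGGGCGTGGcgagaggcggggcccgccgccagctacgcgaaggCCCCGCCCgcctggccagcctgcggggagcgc
Gfi1b: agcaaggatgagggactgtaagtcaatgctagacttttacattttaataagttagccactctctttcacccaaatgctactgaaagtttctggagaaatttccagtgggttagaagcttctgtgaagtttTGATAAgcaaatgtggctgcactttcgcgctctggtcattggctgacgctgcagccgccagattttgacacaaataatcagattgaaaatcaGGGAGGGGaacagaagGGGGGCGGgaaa
Sox6: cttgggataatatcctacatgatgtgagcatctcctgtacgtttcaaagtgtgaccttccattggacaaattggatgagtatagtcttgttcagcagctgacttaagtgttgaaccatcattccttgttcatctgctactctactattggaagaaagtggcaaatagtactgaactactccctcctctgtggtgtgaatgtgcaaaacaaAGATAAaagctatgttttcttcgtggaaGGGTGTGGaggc
Ldb1: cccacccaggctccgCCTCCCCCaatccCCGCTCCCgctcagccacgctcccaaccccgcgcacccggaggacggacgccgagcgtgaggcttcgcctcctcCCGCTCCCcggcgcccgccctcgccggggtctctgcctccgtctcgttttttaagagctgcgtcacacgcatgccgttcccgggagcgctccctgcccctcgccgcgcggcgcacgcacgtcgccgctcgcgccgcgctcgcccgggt

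The printed windows differed in which motif they held. The Klf1 and Tal1 windows held 1 GATA motif and no CACC-type motif. Gata1 and Ldb1 held 3 CACC-type motifs each and Zfpm1 held 4, with no GATA motif. Both kinds stood in the windows of Gfi1b, with 1 GATA and 2 CACC-type matches, and of Sox6, with 1 of each. Over all 16 listed promoters of the 8 genes, 5 (31.2%) held a GATA motif and 10 (62.5%) a CACC-type motif. Among all 32851 RefSeq promoter windows of this length the shares were 16.6% and 45.9%. For 39 promoters of the erythroid target genes they were 35.9% and 59.0%. The other listed windows of a gene could differ from the printed one. At Ldb1 the window chr19:46037071-46037320, under the lead peak, held 2 GATA and 1 CACC-type motif, and at Tal1 the window chr4:115057561-115057810 held 4 CACC-type motifs and no GATA motif. A match describes the letters only.

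Total counts in peaks ranged from 7668099 to 12756647 per library. The 18-month libraries were sequenced in runs 14 and 15 and the 3-month libraries in runs 28 to 31, so 0 of 6 runs held both ages, and age and run cannot be told apart in any comparison of ages. Marker genes of other cells were summed as well. The most accessible peaks of 11 neutrophil markers summed to between 337.3 and 413.7 CPM (counts scaled to the total counts in peaks of the library, with TMM factors) at 18 months and between 266.6 and 407.9 at 3 months, where 407.9 came from male BM-253 and the other 5 libraries reached at most 301.8. Of those 11 peaks 7 rose and 4 were not called, with a median log2 fold change of 0.41. Megakaryocyte markers, with a peak for 10 of 14 genes, summed to between 194.5 and 226.7 CPM at 18 months and between 225.0 and 264.7 at 3 months. Of those 10 peaks 4 fell, Gp9 among them (-0.65), 1 rose (Selp, 0.35) and 5 were not called. Over the most accessible peaks of all 15593 protein-coding genes, 23.5% fell and 6.79% rose. The sums of monocyte (124.1 to 140.8 CPM at 18 months, 122.2 to 148.4 at 3 months), T cell, natural killer cell, stem and progenitor, and mast cell and basophil markers overlapped between ages. Of 8 monocyte peaks 2 rose, 5 were not called and 1 fell, at Fcgr1 (-0.36), 5197 bp outside the gene. With counts summed over all peaks of a gene, 4 of the 8 monocyte markers rose and 0 fell. Of all genes 17.6% rose and 20.1% fell. The Klrb1c peak, 13485 bp outside its gene, averaged 113.7 CPM of the natural killer sum of 149.9 at 18 months. At 3 months these means were 106.7 and 138.0 CPM. B cell marker sums at 18 months did not overlap between the sexes. They were 96.6, 106.2 and 111.3 CPM in the 3 males, below all 6 libraries of 3 months (127.1 to 160.2), and 142.4, 146.9 and 156.5 CPM in the 3 females. The 9 erythroid markers with a peak, all 9 of them also target genes used here, summed to 205.5 to 225.6 CPM at 18 months and 396.8 to 515.6 CPM at 3 months. The part of these marker levels in the results was not tested.

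Accessibility at the regulator genes was lower at 18 than at 3 months. By the quasi-likelihood test of edgeR, in a model that also held sex, 80 of the 166 peaks (48.19%) fell at a Benjamini-Hochberg adjusted p under 0.05, against 11.6% of all 75164 tested peaks. None of the 166 rose, against 9.43% of all tested peaks, and 1 of the 166 was higher at an unadjusted p under 0.05 in edgeR and in DESeq2 alike. All 166 had passed the filter on low counts. The log2 fold change of the 166 ranged from -1.15 to 0.31 with a median of -0.35, where the median of all tested peaks was 0.02. It was negative at 149 and positive at 17. CPM values of the 6 libraries of each age did not overlap at 46 of the 166 peaks (27.7%), all lower at 18 months. Of all tested peaks 5.04% were lower and 2.2% higher without overlap. In a bulk library, fewer erythroid cells and less open chromatin per erythroid cell cannot be told apart.

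**Figure D1:**
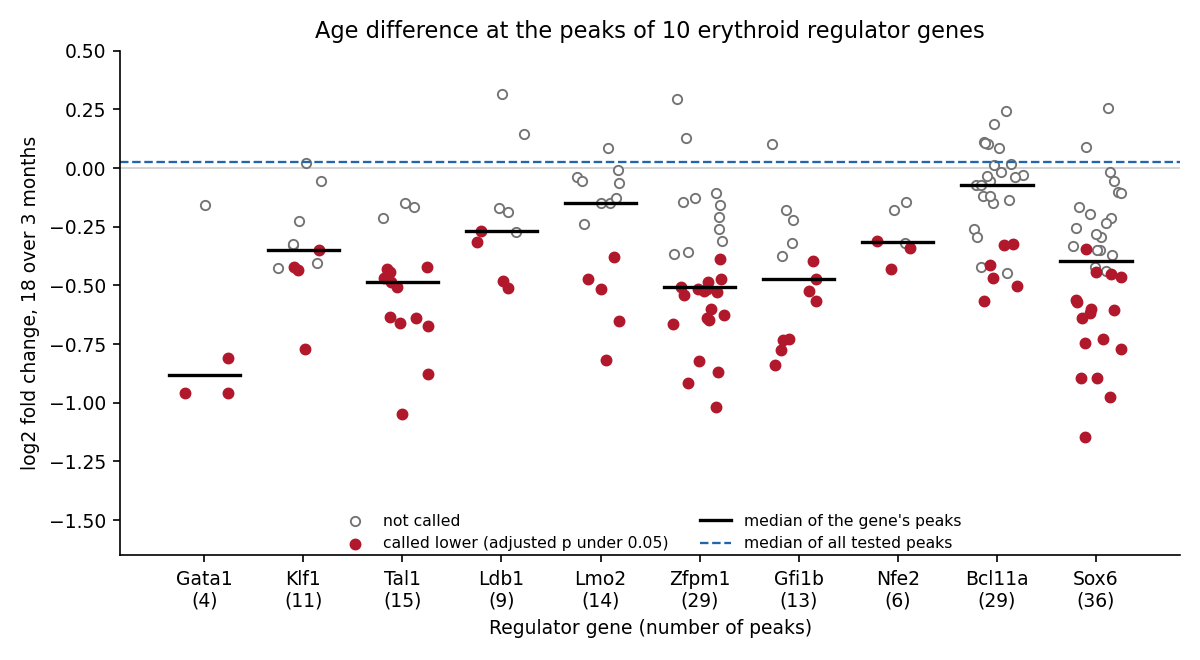
Age difference of each of the 166 peaks (points; vertical axis, log2 fold change of 18 over 3 months) grouped by regulator gene, with the gene's median (black bar) and the median of all tested peaks (dashed line at 0.02). Filled points are the 80 called lower; all 4 Gata1, 15 Tal1 and 6 Nfe2 peaks lie below 0, while Bcl11a peaks lie on both sides of it.

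Peak size moved with this count. The median width was 1035 bp at the regulators and 706 bp over all peaks. Over all tested peaks the share that fell was 2.51% in the lowest quartile of mean CPM and 27.8% in the highest. At the regulators 3 of 20 peaks of the lowest quartile fell, 8 of 29 of the second (5.18% of all), 17 of 53 of the third (10.7% of all) and 52 of 64 of the highest (81.25%). By width, 17 of 19 regulator peaks of 3 kb or more fell (43.7% of all peaks that wide), 43 of 65 of 1 to 3 kb (23.2%) and 20 of 82 under 1 kb (5.36%). Scaling that removes a trend with mean abundance left 79 lower and 1 higher, against 10.4% and 9.58% of all peaks. Scaling that removes a trend with width left 70 lower and 1 higher, against 9.51% and 8.44%. Library totals gave 64 lower and 0 higher, against 8.82% and 14.9%, and DESeq2 gave 80 lower and 0 higher, against 11.9% and 8.53%.

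The falls were not confined to the gene bodies. Peaks inside the gene fell at 53 of 101 and peaks outside it at 27 of 65, with median log2 fold changes of -0.42 and -0.32. Of all tested peaks 11.6% fell. Of the 9 peaks that cover a listed transcription start, 8 fell, with a median of -0.63. These 9 were wide and strong, with medians of 1628 bp and 22.1 CPM, and of all tested peaks of 1 to 3 kb 23.2% fell. The exception covers an Ldb1 start. Of the 38 peaks nearer to another protein-coding gene, 15 fell, against 65 of the 128 nearest to their regulator. The gene table used here holds no exons, so exons and introns are not named.

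Gata1 (chrX:7959260-7976663) had the fewest peaks of the 10. Its most accessible peak, called the lead peak of a gene here, lay at chrX:7970812-7971725, 3.36 kb before the listed start. This lead peak had the lowest mean CPM of the 10 lead peaks, 8.51. At 18 months its CPM was 4.37 at the lowest, 5.86 at the median and 6.89 at the highest, and at 3 months 9.26, 10.2 and 14.3. The ages did not overlap. The log2 fold change was -0.96 (standard error, SE, 0.142, edgeR adjusted p = 1.17e-06), a drop of 48.5%. The peak next to the start, chrX:7967930-7968567, partly within the printed Gata1 promoter window, also fell by 0.96 on the log2 scale (SE 0.174, adjusted p = 5.02e-05), although its values overlapped between ages (2.35 to 6.97 against 5.49 to 9.60 CPM). A peak 25.3 kb before the start, nearer to Glod5, fell too (-0.81, SE 0.162, adjusted p = 2.10e-04). The peak on the side of Hdac6 was not called over both sexes, at -0.16 with adjusted p = 0.480. Within males it was called lower (-0.61, edgeR adjusted p = 0.0270), and within females it stood at 0.25 (adjusted p = 0.406).

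Klf1 (chr8:84901982-84905291) is a compact gene, and 1 peak, chr8:84900147-84904147, covered its start. This peak had 39.3, 50.6 and 55.3 CPM (lowest, median, highest) at 18 months and 77.8, 82.2 and 89.3 CPM at 3 months. All 6 libraries of 18 months lay below all 6 of 3 months, and the log2 fold change was -0.77 (SE 0.0905, edgeR adjusted p = 6.46e-09). The other 10 peaks of the Klf1 region lay outside the gene. Of these, 3 fell: the wide peak toward Dnase2a (chr8:84906263-84914482, -0.42, adjusted p = 1.52e-04), a peak toward Gcdh (-0.44) and a peak toward Mast1 (-0.35). The region is dense with genes, and 8 of the 11 peaks were nearer to another gene than to Klf1.

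Tal1 (chr4:115056426-115071755) had 12 of 15 peaks that fell, the highest share of the 10, and all 15 log2 fold changes were negative. The lead peak covers the first listed start, chr4:115056203-115057501. It had 19.3, 22.4 and 26.2 CPM at 18 months against 27.9, 37.1 and 39.5 at 3 months, without overlap, a log2 fold change of -0.63 (SE 0.106, edgeR adjusted p = 1.28e-05). The steepest fall lay 5.35 kb into the gene at chr4:115061453-115062093, from a median of 7.72 to 3.83 CPM (-1.05, SE 0.172, adjusted p = 8.02e-06), beside a second steep one at chr4:115062317-115063543 (-0.88, adjusted p = 2.73e-07). The most distant peak, chr4:115087910-115092442, 18.4 kb beyond the gene and nearer to Pdzk1ip1, fell as well (-0.67, adjusted p = 5.06e-07). Outside the gene, 3 peaks with log2 fold changes from -0.21 to -0.15 were not called.

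Ldb1 and Lmo2, the bridging proteins, showed the smallest changes among lead peaks with TMM factors. With abundance-trend and width scaling the change at Nfe2 (-0.15 in both) was smaller than at Lmo2 (0.28 and 0.30). At Ldb1 (chr19:46031525-46048145) the lead peak chr19:46035260-46039195 covers an internal start. It had 34.8, 39.4 and 42.9 CPM at 18 months and 38.5, 46.7 and 55.6 CPM at 3 months, and the ages overlapped. Its log2 fold change of -0.27 (SE 0.0976, edgeR adjusted p = 0.0421) lost the call in 9 of the 12 fits that leave out 1 library, all but those without male BM-40, male BM-253 or male BM-252. It also lost the call under library totals, abundance-trend and width scaling (adjusted p from 0.109 to 0.804), and kept it with DESeq2. The printed Ldb1 promoter lies in the peak chr19:46044847-46045850, which was not called (-0.19, SE 0.122, adjusted p = 0.285). The largest fall was at another listed start, chr19:46039498-46040494, from a median of 24.2 to 17.1 CPM (-0.51, SE 0.116, adjusted p = 0.00109).

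The Lmo2 lead peak lay 11.4 kb outside the gene (chr2:103957903-103981878), at chr2:103944691-103948383. With 52.6, 56.8 and 58.5 CPM at 18 months and 48.8, 51.9 and 60.7 CPM at 3 months the ages overlapped, and it was the only lead peak of the 10 that was not called lower (0.08, SE 0.0903, edgeR adjusted p = 0.552). It was called higher under the abundance-trend scaling (0.28, adjusted p = 0.00301) and under the width scaling (0.30, adjusted p = 0.00398). Other Lmo2 peaks did fall. The steepest, chr2:103958996-103961493 inside the gene, went from 31.2 to 41.5 CPM at 3 months to 18.9 to 20.5 CPM at 18 months (-0.82, SE 0.102, adjusted p = 3.23e-08), and its neighbour chr2:103954860-103958700 fell by 0.65 (adjusted p = 3.90e-07). Of the 14 Lmo2 peaks 5 fell, all without overlap between ages, and 8 of the other 9 had log2 fold changes between -0.24 and -0.01. The fallen peak nearest to the lead peak lay 10.2 kb from it. Differences between Lmo2 peaks were not tested.

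Zfpm1 (chr8:122281856-122337862) was the regulator with the most called peaks, 18 of 29. Its lead peak chr8:122276018-122292491, 16474 bp wide, covers the printed promoter and had 180.2, 207.4 and 225.9 CPM at 18 months against 280.6, 327.2 and 358.9 at 3 months. The ages did not overlap, and the log2 fold change was -0.67 (SE 0.0818, edgeR adjusted p = 1.98e-08). The abundance-trend and width scalings each moved it to -0.38 (adjusted p = 4.03e-07 and 1.50e-06). Inside the gene 13 of 14 peaks fell. The steepest lay 40 kb past the start at chr8:122320293-122324061, with 30.0, 35.9 and 39 CPM at 18 months and 64.5, 71.3 and 80.8 at 3 months (-1.02, SE 0.0953, adjusted p = 2.78e-11). A second lay at chr8:122307015-122311884 (-0.92, adjusted p = 2.12e-10). On the side of Zfp469, 1 of 8 peaks fell, where 11.6% of all tested peaks fell, and the log2 fold changes of the other 7 ran from -0.36 to 0.29.

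The repressors GFI1B, SOX6 and BCL11A differed in how their peaks fell. At Gfi1b (chr2:28609450-28621982) the lead peak chr2:28616506-28620301 had 31.4, 33.3 and 36.7 CPM at 18 months and 50.7, 56.5 and 60.0 at 3 months, without overlap (-0.73, SE 0.0925, edgeR adjusted p = 4.00e-08). The start peak chr2:28620594-28622221, which holds most of the printed promoter window, fell by 0.52 (SE 0.112, adjusted p = 4.77e-04). The steepest fall lay 7.48 kb beyond the far end of the gene, at chr2:28601273-28602673 (-0.84, SE 0.114, adjusted p = 1.81e-07), within a run of 6 peaks between 2.45 and 16.6 kb from that end that all fell. On the start side, the 4 peaks between 0.766 and 19.1 kb outside the gene were not called.

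Sox6 (chr7:115470872-116040776) is the longest of the 10 genes, 569905 bp, and 17 of its 36 peaks fell. Its lead peak chr7:115829973-115832686 had 21.0, 23.6 and 31.8 CPM at 18 months and 39.4, 44.1 and 53.6 at 3 months (-0.89, SE 0.105, edgeR adjusted p = 7.37e-09), again with all 18-month libraries below all 3-month libraries. The steepest falls stood at the internal start whose promoter is printed: the peak over that start, chr7:115845831-115846451, fell by 0.89 (SE 0.132, adjusted p = 1.02e-06), the next, chr7:115844210-115845578, by 0.98 (adjusted p = 1.59e-08), and the small peak chr7:115843278-115843606 by 1.15 (SE 0.243, adjusted p = 4.58e-04), the steepest of all 166, from a median of 3.96 to 1.85 CPM. Before this region, peaks near the first listed starts fell at chr7:116031103-116032742 (-0.73, adjusted p = 2.78e-06) and at chr7:116039350-116040753 (-0.35, adjusted p = 0.0240). Past the lead peak, 1 of 12 peaks fell, where 11.6% of all tested peaks fell.

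Bcl11a (chr11:24076564-24173558) had the lowest share of fallen peaks, 6 of 29, with a median log2 fold change of -0.07. Of the 6, 4 stood together around the start: the lead peak chr11:24075914-24077671 and its 3 neighbours. The lead peak had 24.5, 24.7 and 33.3 CPM at 18 months and 29.9, 38.2 and 41.7 at 3 months. The ages overlapped: female BM-42 of 18 months, at 33.3 CPM, stood above the other 5 libraries of that age and above the lowest 3-month value, 29.9. The log2 fold change was -0.50 (SE 0.102, edgeR adjusted p = 2.52e-04). At the peak nearest the start, chr11:24080756-24082287, the value of -0.32 (SE 0.106, adjusted p = 0.0228) lost the call under library totals, abundance-trend and width scaling, and without female BM-42, male BM-38, female BM-245 or male BM-251 (adjusted p from 0.0518 to 0.104). The other 2 fell inside the gene, 49.2 and 56.3 kb past the start: chr11:24129265-24130610 (-0.57, SE 0.124, adjusted p = 6.53e-04), the steepest, and chr11:24136029-24138008 (-0.41, adjusted p = 0.00434). The other 23 had values from -0.45 to 0.24. B cell markers, whose cells also use this gene, had a median log2 fold change of -0.10. Of their 10 lead peaks 1 was lower, where 23.5% of all lead peaks were. By sex the B cell marker median was 0.20 in females and -0.52 in males, while the median of the 29 Bcl11a peaks was -0.25 in females and -0.06 in males. The part of B cells in the Bcl11a values was not tested.

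Nfe2 (chr15:103248212-103258403) lay wholly under its lead peak, chr15:103246365-103259799, which is 13435 bp wide. It had 185.5, 189.8 and 211.2 CPM at 18 months against 227.0, 265.9 and 296.2 at 3 months, without overlap. Its log2 fold change was -0.43 (SE 0.0840, edgeR adjusted p = 1.55e-04), and it came to -0.15 with the abundance-trend scaling (adjusted p = 0.0363) and with the width scaling (adjusted p = 0.0549). Of the other 5 peaks, 1 toward Hnrnpa1 (-0.31, adjusted p = 0.0175) and 1 next to the gene (-0.34, adjusted p = 0.0454) fell.

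**Figure D2:**
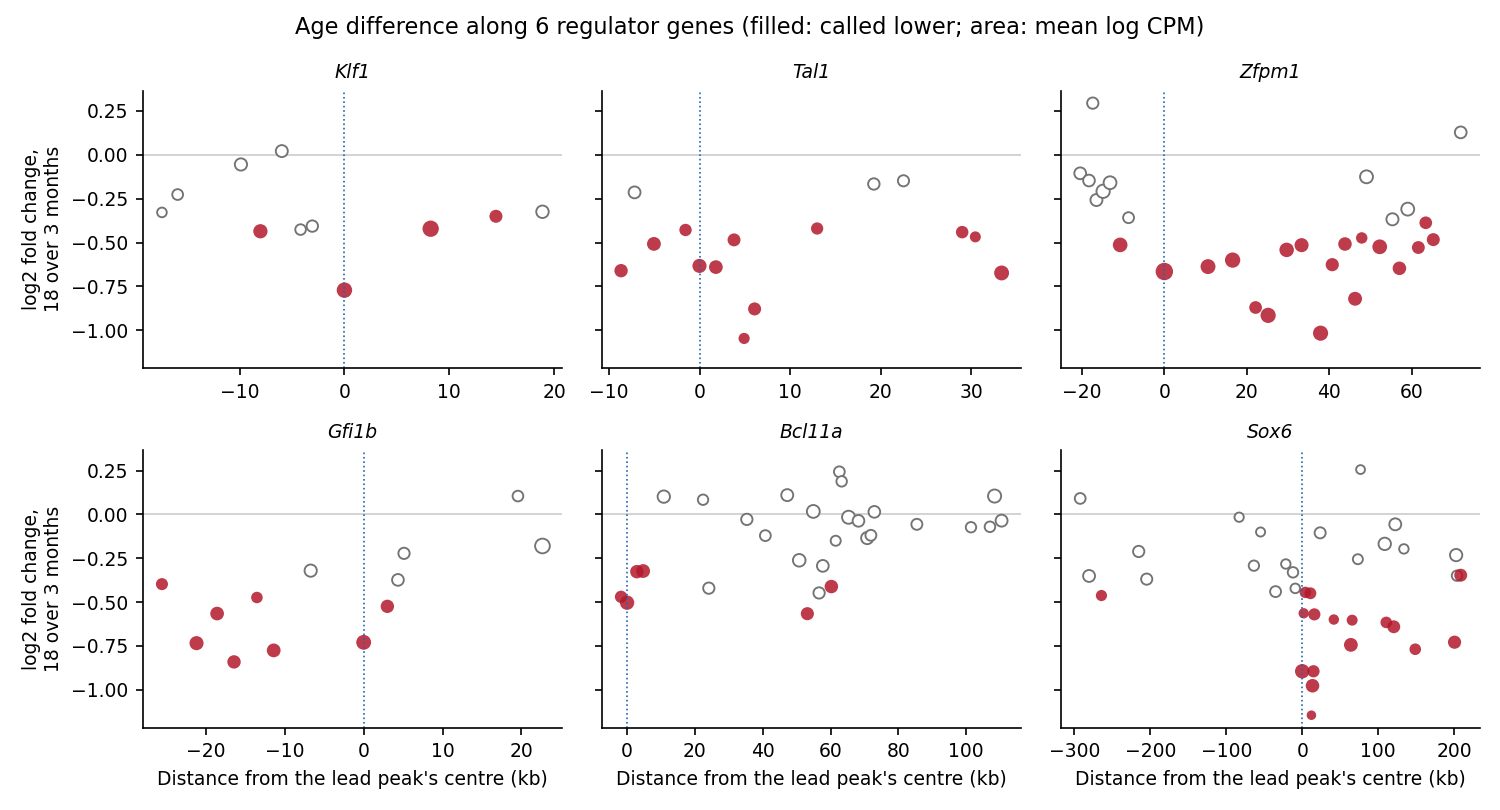
Log2 fold change of 18 over 3 months (vertical axis) against distance from the centre of the gene's lead peak in kb (horizontal axis) for the peaks of 6 regulators, with larger points for higher mean CPM and filled points for peaks called lower. To the right of the lead peak 16 of 20 peaks are filled at Zfpm1, 15 of 23 at Sox6 (out to 209 kb) and 4 of 27 at Bcl11a; at Gfi1b 6 of 7 are filled to the left and 1 of 5 to the right.

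Levels were compared between genes per length of peak. The mean over the 12 libraries was 22.1 CPM per kb of peak at Tal1, 18.1 at Bcl11a, 17 at Nfe2, 16.4 at Klf1, 16.2 at Zfpm1, 14.8 at Lmo2, 12.9 at Sox6, 11.8 at Gfi1b, 10.9 at Ldb1 and 9.32 at Gata1. The order of these levels was not that of the falls. With TMM factors Gata1, Sox6 and Klf1 fell most, Nfe2 and Ldb1 fell least, and Lmo2 was not called. With width offsets Tal1 (-0.58) fell further than Klf1 (-0.54), and differences between these genes were not tested.

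**Figure D3:**
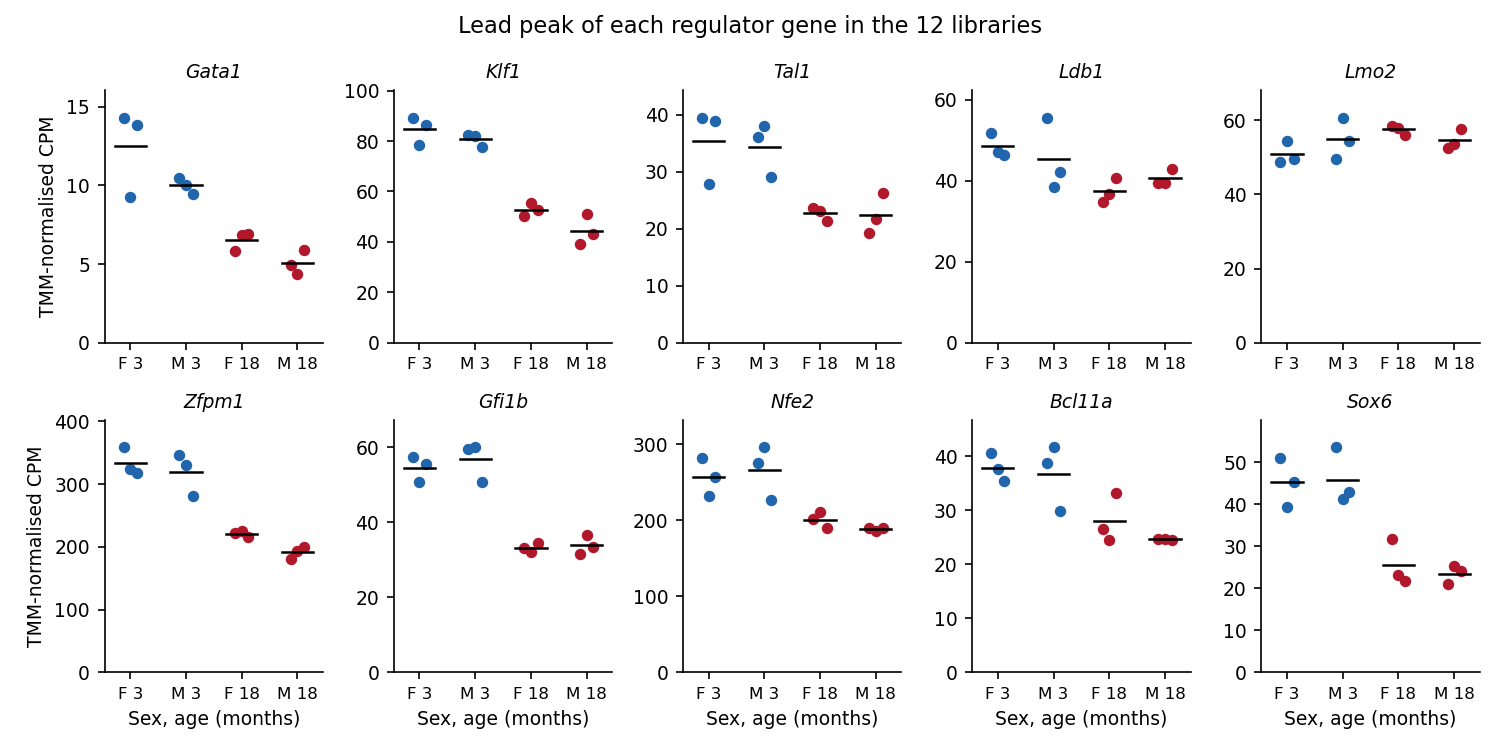
TMM-normalised CPM (vertical axes, from 0) of the lead peak of each regulator in each library (points; blue 3 months, red 18 months), by sex and age, with group means as bars (n = 3 each). The ages do not overlap at Gata1, Klf1, Tal1, Zfpm1, Gfi1b, Nfe2 and Sox6, and they overlap at Ldb1, Lmo2 and Bcl11a.

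To give each gene 1 value over all its peaks, counts were summed over the peaks nearest to it within 20 kb. All 10 sums fell in edgeR's test, against 20.1% of 15594 genes, and 17.6% of genes rose. On the log2 scale Gata1 fell by 0.91 (SE 0.110), Klf1 by 0.66 (SE 0.0638), Zfpm1 by 0.60 (SE 0.0432), Gfi1b by 0.59 (SE 0.0498), Tal1 by 0.51 (SE 0.0586), Sox6 by 0.49 (SE 0.0553), Nfe2 by 0.36 (SE 0.0476), Lmo2 by 0.26 (SE 0.0413), Ldb1 by 0.21 (SE 0.0552) and Bcl11a by 0.15 (SE 0.0472). The Bcl11a sum lost the call with library totals (-0.11, adjusted p = 0.0761), without female BM-35 (-0.13, adjusted p = 0.0520) and without male BM-251 (-0.13, adjusted p = 0.0534). Adjusted p was 0.0163 at Bcl11a, 0.00452 at Ldb1 and at most 2.89e-05 at the other 8. Neighbours in this order from Klf1 to Sox6, and from Lmo2 to Bcl11a, differed by less than 2 of the larger standard error, and Gata1 and Klf1 by more. These differences between regulators were not tested.

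The regulators were then set beside a chosen list of erythroid genes, called target genes here. Control of these genes by the 10 factors was not measured in these data. The 46 target genes fall into globins (4), heme synthesis and iron uptake (13), red cell membrane and skeleton (17) and maturation genes with the erythropoietin receptor (12). All but Ahsp had a peak. Lead peaks fell at 43 of 45 targets with a median log2 fold change of -0.81, and at 9 of 10 regulators with a median of -0.65. Over the lead peaks of all 15593 protein-coding genes, 23.5% fell and 6.79% rose, with a median of -0.10. Under abundance-trend offsets 39 targets, 8 regulators and 14.4% of all lead peaks fell, and 12.1% of all rose. Under width offsets 38 targets, 7 regulators and 13.5% of all fell, and 10.3% of all rose. Library totals gave 42 targets, 8 regulators and 18.8% of all lower, and 11.7% of all higher. Summed over all peaks of a gene the medians were closer, -0.55 for targets and -0.50 for regulators.

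The target groups differed in how far they fell. All 4 globin lead peaks fell, with a median of -0.99, from -1.24 at Hbb-bs (SE 0.102, edgeR adjusted p = 1.23e-12) and -1.05 at Hba-a1 to -0.94 at Hba-a2 and -0.82 at Hbb-bt. Among membrane and skeleton genes 16 of 17 fell (median -0.92), most at Epb42 (-1.15) and the anion exchanger Slc4a1 (-1.14), least at Rhd (-0.33), while the glucose transporter Slc2a1 stood at 0.04. All 13 heme and iron genes fell, with a smaller median of -0.59: Alas2, the erythroid first enzyme of heme synthesis, by 1.00 and Cpox by 0.87, but Urod by 0.31 and Alad by 0.37. Of 11 maturation genes 10 fell (median -0.77), with Trim58 at -1.15, Trim10 at -1.12, Optn at -0.41 and the uncalled Bnip3l at -0.21. The near-identical copies Hba-a1 and Hba-a2, and Hbb-bs and Hbb-bt, could share reads, so their separate values are uncertain.

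**Figure D4:**
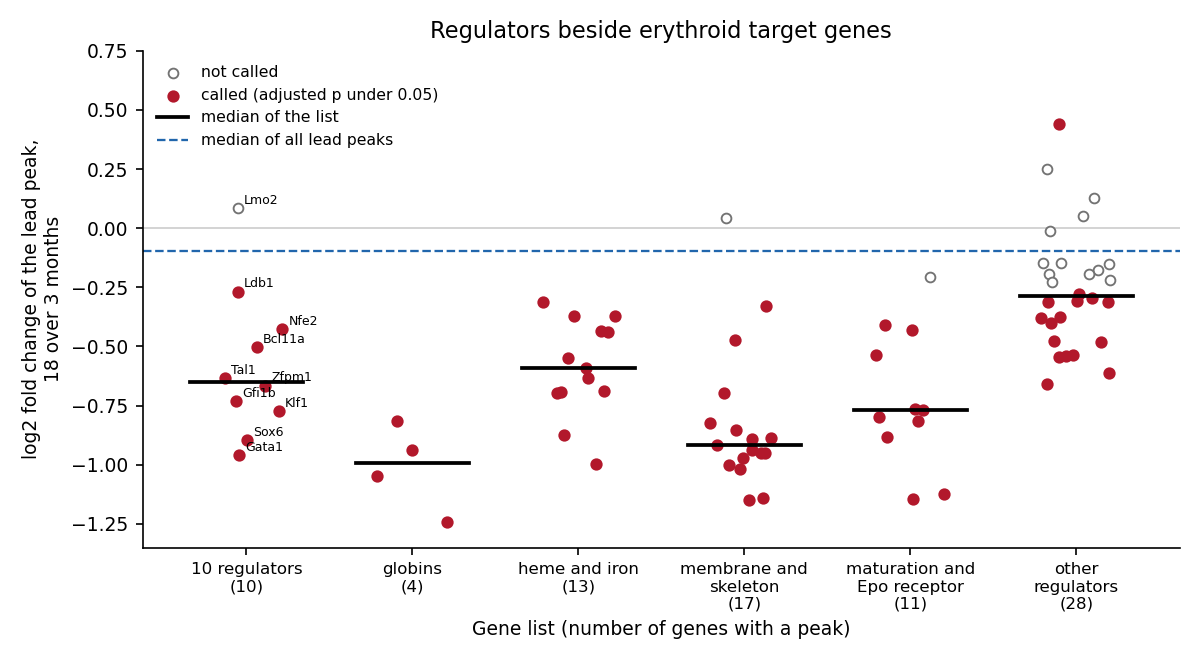
Log2 fold change of the lead peak, 18 over 3 months (vertical axis), of the 10 regulators, 4 groups of target genes and 28 other regulators used in erythroid cells; bars are medians, filled points are called and the dashed line is the median of all lead peaks, -0.10. The regulators spread from -0.96 to 0.08 and the targets from -1.24 to 0.04.

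Individual regulators ranked differently among the 45 targets. The number of targets whose lead peak fell further was 10 for Gata1, 15 for Sox6, 24 for Klf1, 26 for Gfi1b, 30 for Zfpm1, 31 for Tal1, 34 for Bcl11a, 38 for Nfe2, 43 for Ldb1 and 45 for Lmo2. The Lmo2 lead peak, at 0.08, lay outside the targets' range, whose highest value was 0.04. With counts summed over all peaks of a gene the order differed: 5 targets fell further than Gata1, 16 than Klf1, 18 than Zfpm1, 21 than Gfi1b, 26 than Tal1, 28 than Sox6, 38 than Nfe2, 42 than Lmo2 and 44 than Ldb1 and than Bcl11a.

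The difference was tested by setting each library's scale from the mean log2 count of the 45 target lead peaks, so that a log2 fold change above 0 means a smaller fall than the targets. On this scale 92.8% of all lead peaks fell less than the targets or rose. Among the 10 regulators 4 did: Lmo2 (0.82, 95% interval 0.64 to 1.00, edgeR adjusted p = 5.19e-11), Ldb1 (0.48, 0.29 to 0.66, adjusted p = 1.00e-05), Nfe2 (0.32, 0.18 to 0.46, adjusted p = 6.45e-05) and Bcl11a (0.24, 0.05 to 0.44, adjusted p = 0.0205). The Lmo2 value is that of a peak 11.4 kb outside the gene, while with TMM factors the steepest Lmo2 peak stood at -0.82. Of all 14 Lmo2 peaks 12 fell less than the targets or rose, as did 89.7% of all tested peaks. No difference from the targets was called at the other 6 regulators. The comparison was not run with abundance-trend or width offsets. These moved the targets' median log2 fold change to -0.675 and -0.634, and the Zfpm1 lead peak to -0.38 in both. The intervals of the 6 hold for this target scale only and leave out its own error. They ran from -0.51 to 0.08 at Gata1 (-0.21), -0.34 to 0.05 at Sox6 (-0.15), -0.20 to 0.13 at Klf1 (-0.03), -0.16 to 0.19 at Gfi1b (0.01), -0.06 to 0.22 at Zfpm1 (0.08) and -0.08 to 0.32 at Tal1 (0.12). None of the 10 fell more than the targets, nor did any at an unadjusted p under 0.05 in edgeR, the single tool run for this comparison. With the scale taken from the globin and membrane lists alone, which fell furthest, Tal1 (0.23, adjusted p = 0.0438) and Zfpm1 (0.19, adjusted p = 0.0225) also fell less, 6 of 10 in all. With target peaks chosen as the nearest to a gene end, Bcl11a lost the call (0.16, adjusted p = 0.154) and Sox6 fell more (-0.23, adjusted p = 0.0398). Leaving out female BM-42 (0.17, adjusted p = 0.124) or female BM-244 (0.22, adjusted p = 0.0503) also ended the call at Bcl11a, and leaving out female BM-35 made Sox6 fall more than the targets (-0.24, adjusted p = 0.0280).

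**Figure D5:**
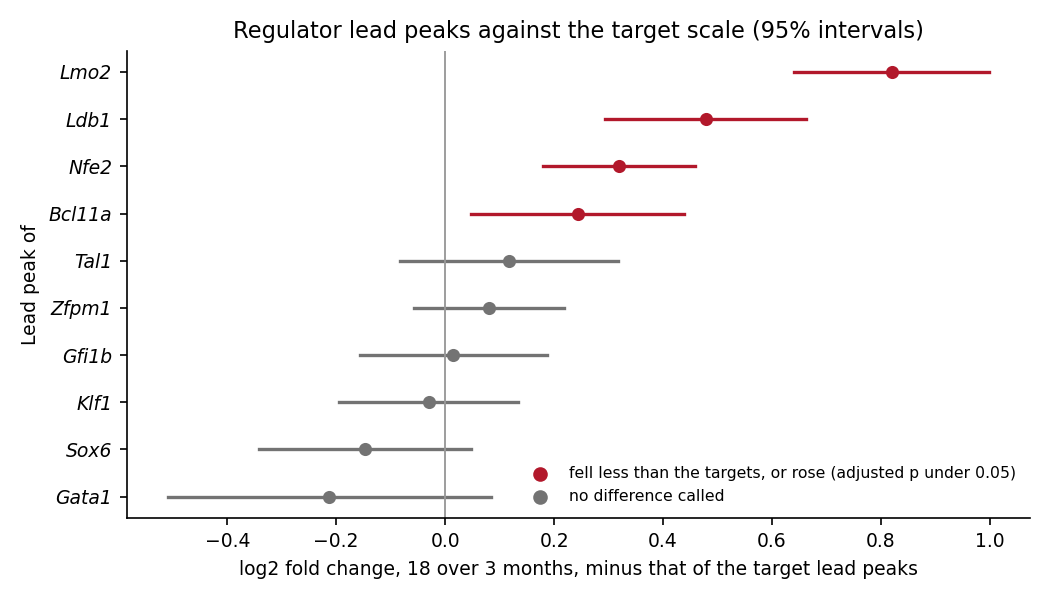
Age difference of each regulator's lead peak minus that of the target lead peaks (horizontal axis, log2; points with 95% intervals; 0 means as far as the targets). The intervals of Lmo2, Ldb1, Nfe2 and Bcl11a lie wholly above 0, and those of the other 6 include 0.

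Over all 166 peaks, 98 fell less than the target lead peaks or rose (89.7% of all tested peaks did) and 1 fell more (0.251% of all). The single one was the Zfpm1 peak 40 kb past the start, at -0.27 (95% interval -0.44 to -0.10, edgeR adjusted p = 0.00398). With the scale from the globin and membrane lists no peak fell more, and with target peaks nearest a gene end 5 did. All 6 Nfe2 peaks and 25 of 29 Bcl11a peaks fell less than the targets, against 12 of 36 at Sox6 and 1 of 4 at Gata1. Per library, mean log2 CPM of target lead peaks minus that of regulator lead peaks was -0.57 at the lowest, -0.47 at the median and -0.36 at the highest at 18 months. At 3 months it was -0.33, -0.32 and -0.26. The ages did not overlap in this difference, and all 12 values were negative.

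A list of 28 other transcription regulators used in erythroid cells gave the wider network. Of their lead peaks 15 fell and 1 rose, with a median log2 fold change of -0.29, where 23.5% of all lead peaks fell and 6.79% rose. Relative to the targets 25 of 28 fell less or rose, a share near the 92.8% of all lead peaks. The steepest falls were at Ssbp3, a partner of LDB1 (-0.66, edgeR adjusted p = 3.59e-07), and E2f4 (-0.61). Etv6 was the gene that rose (0.44, adjusted p = 0.00500), and the myeloid factor Spi1, at 0.25, was not called. Runx1 (-0.01) and Lmo4 (0.05) had the smallest values. Gata2, the factor that GATA1 replaces during maturation, stood at -0.15 (adjusted p = 0.425).

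The age difference was compared between the sexes. In females 60 of the 166 peaks fell, against 6.2% of all tested peaks, and in males 53 fell, against 8.18%. In both sexes 44 fell, against 3.57%. No peak of the regulators rose in either sex in edgeR or in DESeq2, where 5.7% of all peaks rose in females and 3.21% in males. At an unadjusted p under 0.05 edgeR had 0 higher in females and 2 in males. The count in females was 36 without the 3-month female BM-245. The count in males was 29 with width offsets, against 4.9% of all peaks, and 37 with abundance-trend offsets, against 4.72%. The median log2 fold change of the 166 peaks was -0.43 in females and -0.31 in males, with -0.62 and -0.30 at Sox6 and -0.57 and -0.39 at Tal1. Lead peaks did not all follow that order. Over the lead peaks of all protein-coding genes the median was -0.03 in females and -0.18 in males. At Klf1 the lead peak fell by 0.68 in females (SE 0.121) and by 0.86 in males (SE 0.123), and at Zfpm1 by 0.59 and 0.74. At Gata1 the values were -0.94 and -0.98, and at Ldb1 -0.37 and -0.16.

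No age by sex interaction was called at any of the 166 peaks in edgeR or DESeq2, against 0.00532% of all tested peaks, while 10 of 166 had an unadjusted p under 0.05 in both tools. The smallest was at the peak on the Hdac6 side of Gata1 (chrX:7947692-7948192), named after its values were seen. Its mean CPM was 13.2 ± 1.83 at 18 months and 11.2 ± 2.58 at 3 months in females, and 8.0 ± 1.41 and 12.2 ± 1.96 in males (SD, n = 3 each), with an interaction of -0.86 (SE 0.264, edgeR adjusted p = 0.268, unadjusted p = 0.00185). Without the 3-month male BM-252, 2 interactions were called at the regulators. Gata1 lies on the X chromosome, which males carry once. Its lead peak was at -0.34 in males against females (SE 0.142, adjusted p = 0.575), and the sex difference was not called at any of the 166 peaks, with 9 at an unadjusted p under 0.05 in edgeR and 8 in DESeq2. Of all tested peaks 0.144% were called lower and 0.0186% higher in males. Among all X peaks 7.86% were called lower in males. Sex and run cannot be told apart at 18 months, where each sex had its own run.

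To find the genes whose lead peaks varied most like those of Klf1 and Gata1, log2 CPM was centred on each peak's mean, and the root mean square difference over the 12 libraries was taken for 15592 other lead peaks. Closest to Klf1 were the histone gene H2bc12 (0.0859), the globin gene Hbb-bt (0.0903) and Tmem88b (0.0934), where the median over all genes was 0.403. Zfpm1 ranked 12 and Gfi1b 48 in this order, Tal1 453, Sox6 479, Bcl11a 833, Nfe2 926, Gata1 979, Ldb1 4478 and Lmo2 9822. Closest to Gata1 were Dennd2c (0.167), Frmd5 (0.172) and Reln (0.173), against a median of 0.512, with Klf1 at rank 93. The points share the same 12 libraries and the same difference between ages, so this is a description.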

How the data were processed

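ATAC-seq libraries of bone marrow were grouped by the age and sex in the labels (3 mice a group). The authors deposited 1 table of read counts for 75281 peaks in 12 libraries, and the submitters' processing notes name Trimmomatic, BWA, MACS2, DiffBind, edgeR and build mm10, without roles or versions. Whether read ends were shifted or duplicates removed is not given in the sources used here. The smallest deposited count was 1, which compresses changes of the lowest peaks, whereas the regulators' peaks had at least 8 counts in every library. Total counts in peaks were 7668099 to 12756647 per library, so 3 counts, the floor for a count of 0, equal 0.235 to 0.391 CPM. This floor covers counting error only, and no source used here names molecular identifiers.

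The 75164 peaks that reached a CPM over 1 in 2 or more libraries entered the test with edgeR 4.0.16 in R 4.3.3 (TMM factors, quasi-likelihood test, Benjamini-Hochberg adjustment over all tested peaks, threshold 0.05). The model for age held sex as a term without interaction, and a model of the 4 group means gave age within a sex and the interaction. Printed CPM is TMM-normalised. A lead peak is the peak with the highest mean CPM among those nearest to a protein-coding gene within 20 kb. In the comparison with target genes the target scale was treated as known, so its own error is not in the intervals. Gene positions and promoters come from RefSeq tables on GRCm38.p6. The code was tested on simulated data. Alternatives were DESeq2 1.42.0, library totals, offsets smoothed on abundance or width (loess span 0.3), no filter, no sex term, other windows, other target scales and leaving out each library.

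The text names each regulator's lead peak, the peak nearest a listed start and the called peaks with the largest change. From each list it names the 2 genes with the largest and the 2 with the smallest change. Members, lists and rules were chosen with earlier results of these data known. The sources do not say how libraries of a group relate beyond the mouse numbers in the labels, so p-values measure the spread between these libraries.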

Additional observations from a re-analysis of the deposited data

Results flagged for a closer look

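At the Bcl11a lead peak, female BM-42 of 18 months had 33.26 CPM, while the next highest of the 6 libraries of that age had 26.48. The gap was 0.771 of the whole range of that age, more than would be usual for 6 libraries by Dixon's test, which chance exceeds in about 1 in 20 groups. Without this library the peak's log2 fold change was -0.57 and the difference from the target genes was no longer called (0.17, edgeR adjusted p = 0.124).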

How the results depend on the processing

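Of the 166 peaks 64 (library totals) to 80 fell under the other settings tried for age (80 as reported), and 69 to 94 when 1 library was left out. Of the 111 peaks within 3 kb of a regulator 58 fell, and of the 128 nearest to their regulator 65. Abundance-trend and width offsets each gave 1 higher peak in place of 0, over all libraries and in females. Width offsets left 29 lower in males in place of 53. Leaving out 1 library gave 36 to 68 lower in females and 0 to 2 interactions. Of the lead peaks, 1 in place of 0 fell more than the targets with target peaks nearest a gene end, and 0 to 1 when 1 library was left out. Over all 166 peaks that count was 0 with the globin and membrane scale, 5 with peaks nearest a gene end and 1 to 2 when 1 library was left out. The regulators' median log2 fold change was -0.499 with gene sums, -0.444 with abundance-trend offsets and -0.443 with width offsets. The targets' median was -0.546 with gene sums, -0.675 with abundance-trend offsets and -0.634 with width offsets. Some values relative to the targets changed sign near 0, none of them called. Klf1 came to 0.0791 with the globin and membrane scale, 0.0164 without male BM-38 and 0.00043 without male BM-252. Zfpm1 came to -0.00428 and Gfi1b to -0.0687 with peaks nearest a gene end. When 1 library was left out Klf1 ran from -0.0637 to 0.0164 and Gfi1b from -0.00791 to 0.0401. Gfi1b came to -0.00281 without female BM-42, -0.00791 without male BM-39 and -5.75e-05 without male BM-251. The cause of these changes was not tested. The median of all peaks moved from 0.024 to 0.0987 with library totals, less than 0.1. No paired analysis was possible because the groups share no mouse numbers. At 3 months 2 runs held 1 female and 1 male each, and sex was not blocked by run. The main limits are that age and run coincide, that the mix of cells was not measured, and that counts of 2.11 CPM on average at the lowest regulator peak leave wide intervals there.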
